A study of Mus musculus with 10 samples.

Results

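Sites of Sox4 CUT&RUN peaks that lay away from gene ends and in chromatin open in the wildtype cochlea were described here, in the mouse embryo at E13.5. A Sox4 site was a place where at least 2 of 3 Sox4 CUT&RUN libraries had one of their 20000 strongest autosomal peaks (chromosomes 1 to 19), taken as 250 bp on each side of the summit. CUT&RUN cuts DNA beside an antibody-bound protein, and here a guinea pig antibody to Sox4 was used on GFP-positive progenitors sorted from p27kip1-GFP embryos of wildtype genotype. Of 1701 such sites, 474 lay more than 1 kb from both ends of every coding gene and overlapped a peak in all 3 full wildtype ATAC-seq lists. These 474 distal sites were 502 to 1447 bp long (median 626), and 122 of them came from 3 Sox4 libraries and 352 from 2. The sites were chosen by their position, their Sox4 peaks and their wildtype ATAC peaks, so these values are given as a description without a test.

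ATAC-seq, which maps open chromatin by the insertion of a transposase, was made from unsorted cochlear tissue of the same age, in 3 wildtype libraries and 2 libraries of SoxC double knockout embryos. The ATAC labels name neither the deleted genes nor the Cre driver. The single-cell knockout library of the series carries Pax2cre and SoxC fl/fl, and both single-cell libraries were not used here. The titles call the ATAC tissue whole organ and the protocol speaks of epithelia, so the tissue was not limited to the sorted progenitors. In such bulk tissue, fewer cells of a type and less open chromatin per cell cannot be told apart. The labels do not say whether replicates came from separate embryos, so p-values measure only the spread between these samples.

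Sox4 belongs to the SoxC group of transcription factors, with Sox11 and Sox12. SoxC proteins bind the minor groove of DNA through an HMG box, which recognizes short A- and T-rich sequences around ACAAAG or ACAATG. They are expressed in many embryonic progenitors, and in the inner ear SoxC factors are known to be needed for the formation of hair cells. At this age the prosensory cells of the cochlear duct leave the cell cycle and begin to express the cyclin-dependent kinase inhibitor p27Kip1, the product of Cdkn1b and the basis of the reporter used for sorting.

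The sequences of whole sites were not analysed here, because no mm10 genome was at hand. Sequence was at hand for sites that held an annotated transcript start, as the bases just upstream of that start in RefSeq (GRCm38.p6, the mm10 build). A transcript start lay inside 49 of the 461 sites that could be assessed (10.6%), against 3.67% of 64098 distal regions open in wildtype. In 35 sites it belonged to the nearest coding gene, as a start inside the gene body, and in 14 to a non-coding or other gene. The upstream bases that lay inside the site are shown for the 5 starts where they hold a Sox sequence, in capitals, searched as AACAAAG or AACAATG on both strands (CTTTGTT and CATTGTT on the other strand). All are written 5′ to 3′ on the strand of the transcript.
BC006965 (chr11:112711357-112711606, minus strand): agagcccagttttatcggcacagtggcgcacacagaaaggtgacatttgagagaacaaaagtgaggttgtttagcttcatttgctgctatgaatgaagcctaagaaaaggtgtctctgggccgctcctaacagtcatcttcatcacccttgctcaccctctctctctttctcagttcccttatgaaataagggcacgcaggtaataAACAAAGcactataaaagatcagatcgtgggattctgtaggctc
Gm46609 (chr17:87613544-87613793, minus strand): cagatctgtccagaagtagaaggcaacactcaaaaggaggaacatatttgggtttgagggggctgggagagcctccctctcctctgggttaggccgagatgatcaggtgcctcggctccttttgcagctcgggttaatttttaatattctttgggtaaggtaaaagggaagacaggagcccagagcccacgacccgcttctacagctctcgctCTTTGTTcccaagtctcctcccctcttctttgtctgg
1700113A16Rik (chr3:88177786-88178035, minus strand): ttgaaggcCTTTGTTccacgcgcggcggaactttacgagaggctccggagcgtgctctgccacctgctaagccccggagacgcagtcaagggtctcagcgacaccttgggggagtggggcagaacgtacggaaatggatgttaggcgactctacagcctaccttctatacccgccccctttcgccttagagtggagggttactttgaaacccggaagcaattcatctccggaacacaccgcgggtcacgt
Fuz (chr7:44895829-44896078, plus strand): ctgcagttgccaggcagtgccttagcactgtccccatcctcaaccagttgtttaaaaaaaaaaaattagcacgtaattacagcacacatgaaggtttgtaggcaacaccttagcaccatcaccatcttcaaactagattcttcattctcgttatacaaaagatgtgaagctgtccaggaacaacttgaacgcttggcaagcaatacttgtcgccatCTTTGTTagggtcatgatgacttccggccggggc
Smg9 (chr7:24399454-24399627, plus strand): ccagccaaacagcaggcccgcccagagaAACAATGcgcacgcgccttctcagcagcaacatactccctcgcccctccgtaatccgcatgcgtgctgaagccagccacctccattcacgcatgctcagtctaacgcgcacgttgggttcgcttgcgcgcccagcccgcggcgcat

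BC006965 is a long non-coding RNA whose start lay in the site nearest to Sox9, at chr11:112711345-112711940 and 70270 bp from that gene, which encodes a SoxE factor of the otic epithelium. Gm46609 is a non-coding RNA that starts in the site 22007 bp from Epcam, the gene of an epithelial adhesion protein. The RNA 1700113A16Rik starts in a site 5621 bp from Mef2d. Fuz, a gene of ciliogenesis and planar polarity, and Smg9, a gene of nonsense-mediated decay, had a start of their own inside the site. In windows of 250 bases before to 50 after the start, AACAAAG was found at 5 of 55 starts in the sites (9.09%) and at 5.80% of 31396 autosomal starts. AACAATG was found at 1 (1.82%), against 3.75%. Other sequences searched on both strands were CCGGAA, the core of Ets sites, at 13 starts (23.6% against 15.1%), GGAATG, the core of TEAD sites, at 9 (16.4% against 14.6%), and CAGCTG, an E-box, at 5 (9.09% against 16.3%). The E-box CAGATG (17.2% of all starts) and the GATA sequence AGATAA (11.2%) were found at 1 start each. The 250 bases upstream had a median GC content of 59.2% at the starts in the sites and 52.4% at all starts, and its part in these shares was not tested. A match is not a bound site, and these windows cover few of the 474 sites.

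Sox4 peaks at the distal open sites were stronger than those at distal sites not open in all 3 wildtype lists, and weaker than those at open gene ends. Their median rank among the Sox4 peaks of a library, by −log10 p, was 3609, 2284.5 and 3213 in replicates 1 to 3, over 319, 394 and 357 sites. At those 597 distal sites the medians were 10016.5, 9882 and 9110. At the 597 sites within 1 kb of a gene end and open in wildtype they were 1198.5, 1318 and 743. The last of the 20000 peaks used had a −log10 p of 6.16, 5.70 and 4.24, so the weakest sites rest on modest peaks. Summits of the same site lay a median of 90 to 105 bp apart between Sox4 libraries. Between a Sox4 summit and the wildtype ATAC summit the median distance was 145 to 181 bp.

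For the 352 sites found in 2 libraries, the rule had used the other Sox4 library too, since it had none of its 20000 strongest peaks there. Below that limit its full list still held a peak at 112 of them (31.8%), against 58 of 570 distal sites not open in all 3 wildtype lists (10.2%) and 114 of 367 sites at open gene ends (31.1%). The share followed the length of the library's list. It was 43.9% for replicate 1 (158444 merged peaks), 30.0% for replicate 2 (72417) and 17.1% for replicate 3 (38914). A further Sox4 list under the label of replicate 1, with 370526 merged peaks, overlapped 469 of the 474 sites (98.9%) and 557 of the 597 distal sites not open in all 3 lists (93.3%). A control antibody library was not analysed here, so Sox4 signal cannot be told apart from signal that open chromatin gives with any antibody.

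Within the genome, the distal open sites lay much as other distal open regions did. Inside a coding gene lay 244 of them (51.5%), against 50.2% of 66645 distal regions open in wildtype. Over 100 kb from any coding gene lay 86 (18.1%), against 17.0% of the regions. The median distance to a gene end was 33438 bp and 35524 bp. The shares lay farthest apart next to the 1 kb limit, where 40 sites (8.44%) lay 1 to 2 kb from a gene end, against 4.25% of the regions. Just inside that limit lay sites at Zfp503 (1057 bp), Zfp574 (1067 bp) and Khdrbs1 (1101 bp), and just outside it sites at Foxo3 (945 bp), Gpr108 (971 bp) and Ammecr1l (985 bp). The Zfp503 site ranked 11161, 15537 and 12143 in wildtype, against 11458 and 9121 in knockout ATAC lists, and the Foxo3 site 6886, 5242 and 6127 against 10545 and 5859.

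**Figure D1:**
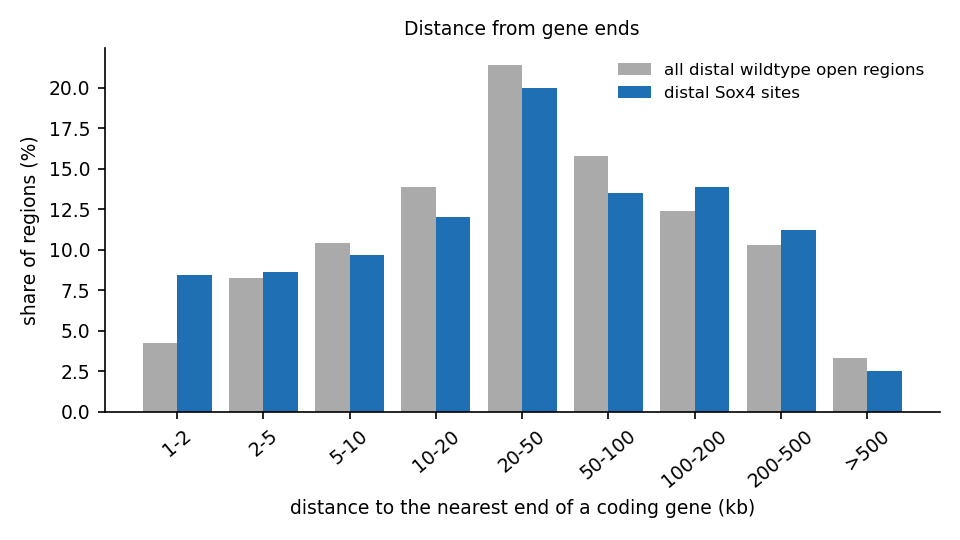
Share (%, vertical axis) of the 474 distal Sox4 sites (blue) and of 66645 distal wildtype open regions (grey) by distance to the nearest end of a coding gene in kb (horizontal axis). The bars are close in most classes, and at 1 to 2 kb the sites have 8.44% and the regions 4.25%.

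The distal Sox4 sites were among the strongest distal ATAC peaks of the wildtype libraries. Merged autosomal peaks were ranked by −log10 p in each library, with rank 1 as the strongest. The lists held 165038, 145099 and 173032 peaks in wildtype, against 208902 and 192810 in knockout. The sites had a median rank of 7797, 8031.5 and 8903.5 over wildtype libraries, against 12091 and 10433 over knockout libraries. All distal wildtype open regions had medians of 46686 to 47174 in wildtype, against 48702.5 and 47214 in knockout. Both knockout medians of the sites thus lay behind all 3 wildtype medians, while those of the regions moved little. The regions are no match for the sites here, because the sites were far stronger in wildtype. Strong wildtype peaks have more room to fall in rank than to rise. The contrast therefore does not show a fall particular to the sites, and regions of like wildtype rank are compared with them below. The knockout medians leave out what had no peak there. They cover 61904 and 60779 of the 66645 regions, and 469 and 468 of the 474 sites. Among the 10000 strongest peaks were 57.8%, 58.6% and 54.4% of the sites in wildtype and 45.8% and 48.9% in knockout. The 49 sites with a transcript start had medians of 4040, 4748 and 4261 in wildtype, against 5296 and 4601 in knockout. The sites without one had 8382.5, 8504 and 9699.5 against 14230 and 11769.5.

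**Figure D2:**
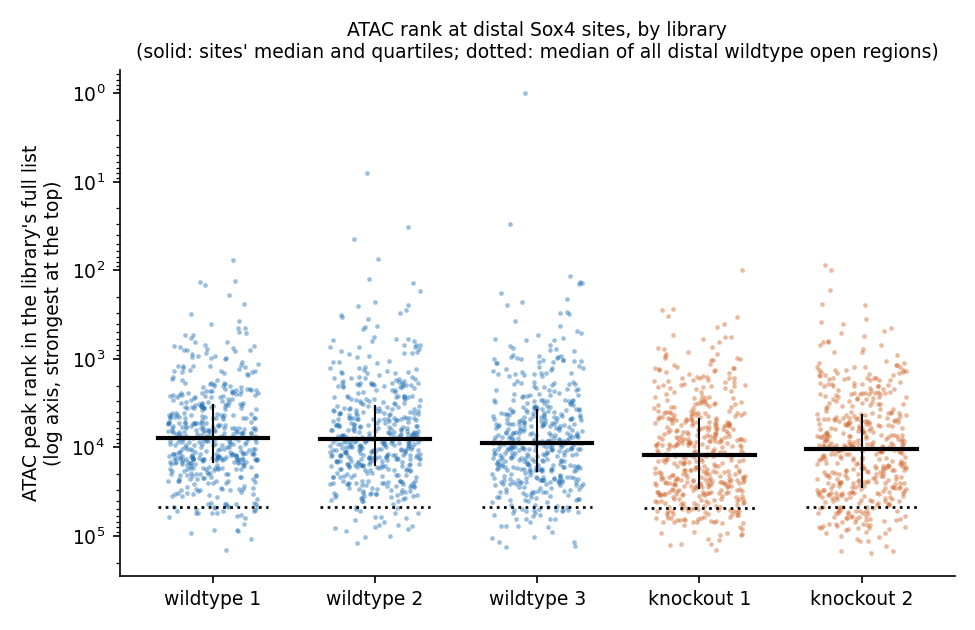
ATAC peak rank (vertical log axis, strongest at the top) of each distal Sox4 site in 3 wildtype (blue) and 2 knockout libraries (orange), with the sites' median and quartiles as solid lines and the median of all distal wildtype open regions dotted. Site medians are 7797 to 8903.5 in wildtype and 10433 to 12091 in knockout.

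Nearly all sites were still called as peaks in the knockout. Both full knockout lists held a peak at 467 of the 474 sites (98.5%), 3 sites had a peak in 1 list and 4 in none. The share was 89.3% for all distal wildtype open regions, 99.4% for those with a mean wildtype rank under 20000, and 99.7% for the sites under that rank. At a mean wildtype rank of 20000 or more it was 93.7% of the sites (89 of 95), against 87.4% of distal regions. All 122 sites found in 3 Sox4 libraries and all 597 sites at open gene ends had a peak in both knockout lists.

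The strength of these peaks was compared on ranks, because −log10 p spanned other ranges in the lists of each genotype. Peaks were ranked again among the 75365 regions with a peak in all 5 lists, and log2 ranks were fitted with limma over all of them, with Benjamini-Hochberg adjustment. A site took the values of the overlapping region with the best mean wildtype rank, which can reach beyond the site. The sites tested are therefore not exactly those with a peak in both knockout lists. The shift is the mean log2 rank in knockout minus that in wildtype, so a value above 0 means a weaker rank in knockout. Of the 467 sites that could be tested, 128 (27.4%) were weaker in knockout at an adjusted p under 0.05 and 31 (6.64%) were stronger. Among the 59512 distal regions tested, 8.48% were weaker and 8.47% stronger, and among all 75365 regions 8.69% and 9.58%. The median shift was 0.45 for the sites, with quartiles of −0.30 and 1.33, and 0.03 for the distal regions. Both knockout libraries ranked below all 3 wildtype libraries at 215 sites (46.0%), against 26.3% of distal regions, and above all 3 at 79 sites (16.9%), against 25.1%.

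**Figure D3:**
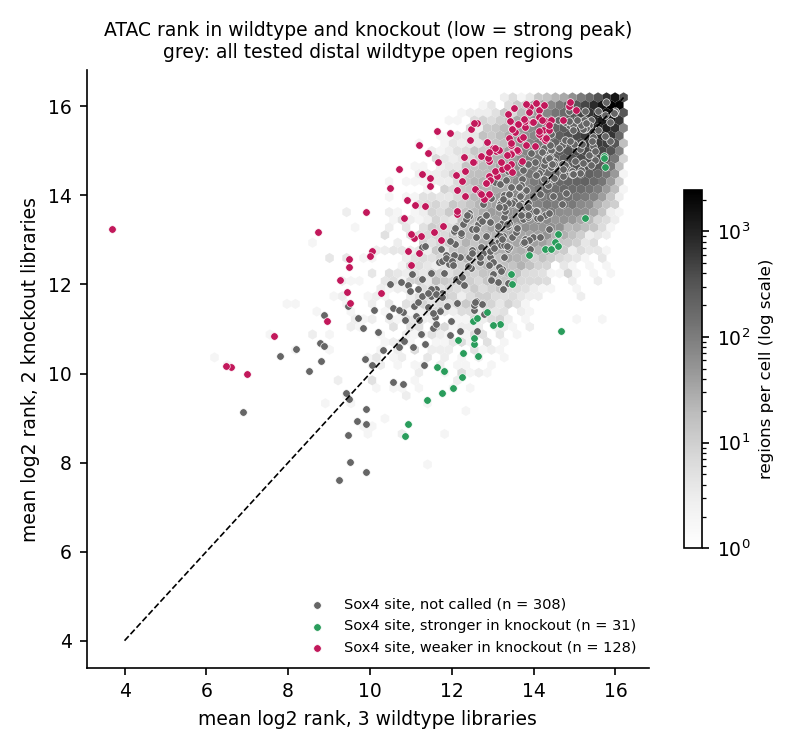
Mean log2 rank among the tested regions in the 3 wildtype (horizontal) and 2 knockout libraries (vertical), with low values for strong peaks, for all distal wildtype open regions (grey) and the distal Sox4 sites (points, coloured by call). Above the dashed line of equality lie 303 of the 467 sites, and 128 are called weaker in knockout and 31 stronger.

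Which library was used mattered for these counts. Without knockout replicate 1, which leaves 1 knockout library that is assumed to vary like the wildtype ones, 43 sites were weaker (9.19%, against 1.06% of all regions) and 4 stronger (0.855%, against 1.34%). Without knockout replicate 2 65 were weaker (13.9%, against 2.63%) and 15 stronger (3.21%, against 4.09%). Without wildtype replicate 2 there were 72 (15.4%, against 4.07%) and 5 (1.07%, against 3.12%). Without wildtype replicate 3 there were 112 (24.0%, against 7.91%) and 11 (2.36%, against 6.71%). The genotypes also differed in how the lists had been made. Only the knockout lists state a significance threshold and an upper limit to their length, and at rank 50000 their −log10 p was 104 and 50.5, against 19.03, 10.5 and 8.75 in wildtype. The median width of the peaks at the sites was 775, 716.5 and 712.5 bp in wildtype and 1011 and 881 bp in knockout. Genotype and the processing of the lists cannot be told apart.

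Fold enrichment, the height of a peak over its local background, gave like counts of falls. Its median over the sites was 13.4, 11.4 and 9.85 in wildtype, against 11.4 and 12.3 in knockout, which overlap. It was higher in both knockout libraries than in all 3 wildtype libraries at 63 of the 467 sites, against 42.8% of distal regions, and lower at 78 (16.7%), against 9.23%. With fold enrichment brought to one distribution in place of rank, limma called 128 sites weaker (27.4%, against 8.27% of distal regions) and 4 stronger (0.857%, against 10.8%). The sign of this shift was turned to match that of rank, so a positive value again means weaker in knockout. Of the 128 sites weaker by rank, all 128 kept their direction and 82 their call. Of the 31 sites stronger by rank, 9 kept their direction and 2 their call, so the rises by rank depend on the measure. On −log10 p itself most values were higher in knockout: both knockout libraries exceeded all 3 wildtype libraries at 381 sites (81.6%), against 77.9% of distal regions, and fell behind all 3 at 7, against 1.20%. Among the 128 sites weaker by rank, −log10 p was higher in both knockout libraries at 58 (45.3%).

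The Sox4 sites were strong in wildtype, and a class of wildtype rank is formed from one side of the comparison, which favours falls in strong classes and rises in weak ones. Of the distal regions, 48.1% were weaker and 1.09% stronger under rank 1000, and 0.258% and 11.6% at 50000 or beyond. Of the 467 tested sites 259 (55.5%) had a mean wildtype rank under 10000 among the tested regions, against 6.54% of distal regions. Within classes of wildtype rank, the excess of the sites was not general. In the 34 sites ranked under 1000, 38.2% were weaker, against 48.1% of distal regions of that class. The shares were 30.8% against 36.2% at 1000 to 2000, 25.6% against 35.8% at 2000 to 5000 and 29.4% against 32.9% at 5000 to 10000. Only at 10000 to 20000 (37.6% against 24.1%) and 20000 to 50000 (10.0% against 7.86%) did the sites have the higher share. At 50000 or beyond, 0 of 11 sites were weaker. In each class under 10000 the median shift of the sites was also below that of the regions, as at 5000 to 10000 (0.46 against 0.70). The sites had the higher median shift at 10000 to 20000 (0.64 against 0.45) and 20000 to 50000 (0.21 against 0.09). At 50000 or beyond the medians were −0.21 and −0.07.

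With classes by the mean rank over both genotypes, the sites had 21.7% against 22.1% under 1000, 22.2% against 15.8% at 1000 to 2000, 14.3% against 16.9% at 2000 to 5000 and 22.7% against 17.5% at 5000 to 10000. They had 35.0% against 15.3% at 10000 to 20000 (117 sites) and 36.4% against 10.2% at 20000 to 50000 (121 sites). In these 2 classes the median shift of the sites was 0.63 and 0.54, against −0.01 and −0.04 in the distal regions. Under rank 1000 it was 1.49 over 23 sites, against 0.33, although the share called weaker did not exceed that of the regions. Stronger in these classes were 8.70% of the sites against 11.5% under 1000, 18.5% against 16.7%, 13.1% against 16.0% and 4.55% against 11.9% up to 10000, and 4.27% against 11.8% and 3.31% against 11.1% from there to 50000. The share called weaker exceeded that of the distal regions on both ways of classing at ranks of 10000 to 50000. The mean rank does not set aside that the sites were chosen in wildtype. A site strong in wildtype that fell enters a weaker class of mean rank. At 20000 to 50000, 8 of 80 sites were weaker by wildtype rank and 44 of 121 by mean rank. How much of the excess comes from this was not tested. These classes were added after the values had been seen.

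**Figure D4:**
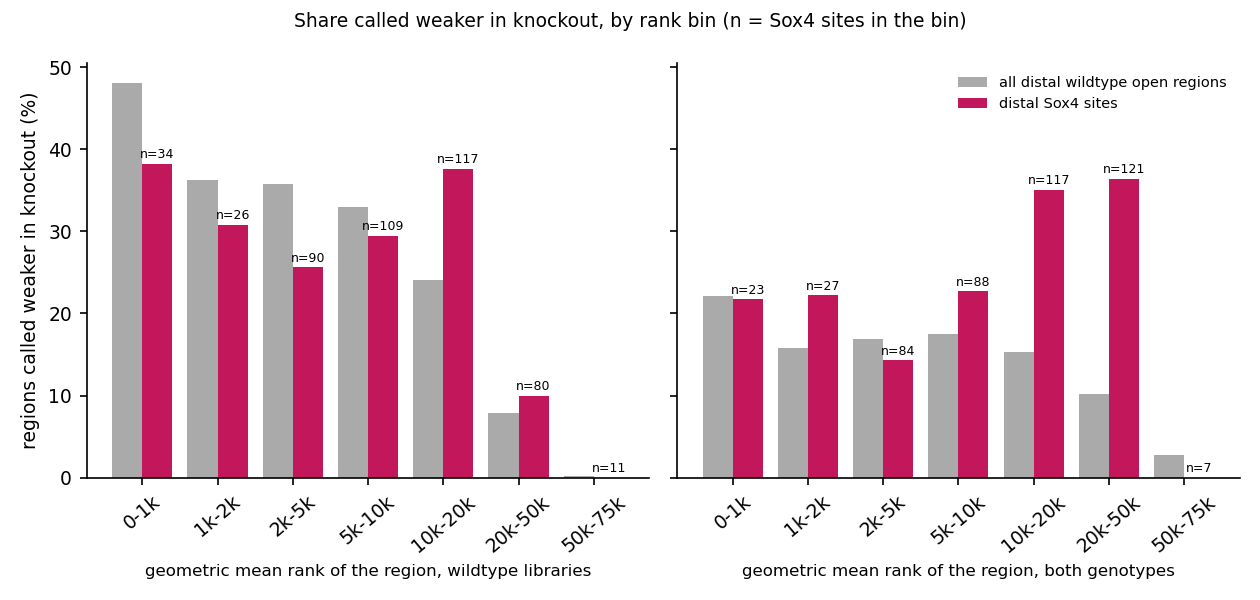
Share called weaker in knockout (%, vertical axis) among distal Sox4 sites (red, number of sites above each bar) and all distal wildtype open regions (grey), in classes of the region's rank over the wildtype libraries (left) or over both genotypes (right). The sites exceed the regions mainly at ranks of 10000 to 50000. There they have 37.6% against 24.1% and 10.0% against 7.86% in the left panel, and 35.0% against 15.3% and 36.4% against 10.2% in the right panel.

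Sites with and without a transcript start had different shares of calls, and the difference itself was not tested. Of 49 sites with a start, 5 were weaker (10.2%) and 9 stronger (18.4%), with a median shift of −0.27, against 8.22% and 9.35% of distal regions with a start. Of 405 without one, 120 were weaker (29.6%) and 22 stronger (5.43%), with a median of 0.53, against 8.48% and 8.55% of distal regions without a start. Of 595 Sox4 sites at open gene ends, 40 were weaker (6.72%) and 109 stronger (18.3%), with a median of −0.29, against 9.47% and 13.8% of all open regions at gene ends. Sites over 100 kb from any coding gene had the highest share of the groups formed here, with 35 of 85 weaker (41.2%), 3 stronger (3.53%) and a median of 0.89. Inside coding genes, 66 of 242 sites were weaker (27.3%) and 20 stronger (8.26%). The matching shares of distal regions that far from genes, or inside them, were not computed. All distal regions tested had 8.48% weaker and 8.47% stronger. Sites in 3 Sox4 libraries (34 of 122 weaker, median 0.71) and in 2 (94 of 345, median 0.44) had like shares of calls.

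Peaks within 1 kb of marker genes were listed to check the tissue. All 4 epithelial genes (Epcam, Cdh1, Krt8, Krt18) and all 5 otic epithelial genes (such as Pax2, Gata3 and Sox2) had a peak in every wildtype list, and so did 3 of 4 mesenchymal and 3 of 3 neuronal genes. Of blood and macrophage genes, Klf1 and Spi1 had one too, while Hba-a1 and Csf1r had none in any list. None of the 3 endothelial genes had a peak in all wildtype lists, and both glial genes placed had one. Both knockout libraries ranked below all wildtype libraries at the 3 mesenchymal genes with peaks in all 5 lists, at 1 of 3 neuronal, 2 of 5 otic and 0 of 4 epithelial genes. At Tbx18, a gene of otic mesenchyme, the ranks were 12893, 5853 and 8805 in wildtype, against 39488 and 30877 in knockout. At Pou4f1, a neuronal gene, they were 3425, 3841 and 2503 against 18926 and 17724, while at Neurod1 and Tubb3 the genotypes overlapped. Both knockout libraries ranked above all wildtype ones at 2 of the 4 epithelial genes and at 1 otic (Pax2), 1 glial (Sox10), 1 blood (Klf1) and 1 macrophage gene (Spi1). Among the distal regions tested, ranked again, 26.3% lay below and 25.1% above in this way. The share for open regions at gene ends was not computed. The mesenchymal genes with peaks in all 5 lists all lay below and none of the epithelial genes did, but so few genes cannot give rates by cell type. The part of cell mixture in the shifts at the Sox4 sites was not tested.

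The largest loss of rank in knockout was at a site inside Myo3a, the gene of a stereocilia myosin (chr2:22589531-22590197, in 3 Sox4 libraries). It was among the strongest wildtype peaks, at rank 243, 8 and 1, and ranked 24345 and 3260 in knockout. The −log10 p behind these ranks was 412, 429 and 533 in wildtype, against 253 and 491 in knockout, which overlap. The shift was 9.54 (SE 1.91, limma adjusted p = 0.0094), and the 2 knockout libraries differed widely. Its fold enrichment was 29.9, 27.8 and 30.6 in wildtype, against 19.9 and 28.1 in knockout, so the fold values were nearer to each other than the ranks. The call was lost without wildtype replicate 2 (limma adjusted p = 0.0511) and without knockout replicate 1 (0.0733).

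At the other 5 of the 6 largest falls, both knockout libraries ranked far behind all wildtype libraries. A site 318056 bp from Prkd1, a protein kinase D gene, ranked 812, 280 and 247 in wildtype, against 9412 and 7341 in knockout (shift 4.46, limma adjusted p = 0.00264). A site inside Jph1, a junctophilin gene, ranked 4619, 2007 and 1035 against 35686 and 36151, and one inside Mettl15, whose product methylates mitochondrial ribosomal RNA, 6607, 1696 and 2157 against 49815 and 48257. In each of these sites the worst wildtype rank was ahead of the best knockout rank. A site 133953 bp from Tafa2, in 3 Sox4 libraries, ranked 2318, 1221 and 1231 against 27543 and 19837 (shift 3.90, limma adjusted p = 0.00105). Its fold enrichment was 19.9, 17.1 and 16.2 against 13.4 and 11.8. A site inside Lmo7 ranked 652, 954 and 1066 against 11009 and 11930 (shift 3.72, SE 0.45, limma adjusted p = 0.00149), but its fold enrichment overlapped between genotypes, with 20.5, 15.6 and 13.8 against 14.0 and 18.1, and on that measure it was not called (limma adjusted p = 0.0869). None of these 6 sites held a transcript start.

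**Figure D5:**
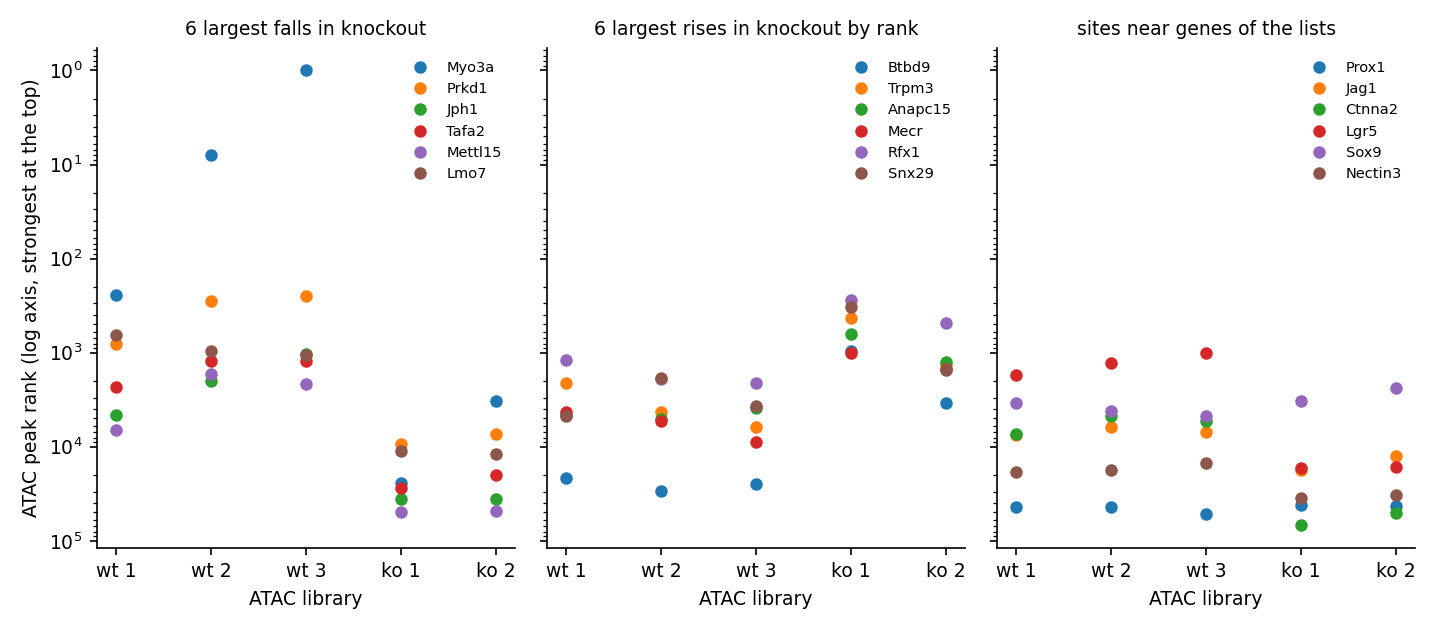
ATAC peak rank (vertical log axis, strongest at the top) in each of the 3 wildtype (wt) and 2 knockout (ko) libraries for the sites with the 6 largest falls, the 6 largest rises and 6 sites near listed genes, 1 colour per site named by its nearest coding gene. At Myo3a the wildtype ranks are 243, 8 and 1 and the knockout ranks 24345 and 3260, and at Lgr5 all wildtype ranks are ahead of both knockout ranks.

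Gains of rank were smaller. Each of the 6 largest turned to a shift above 0, the side of weaker in knockout, with fold enrichment in place of rank. A site inside Btbd9 (chr17:30576169-30576942) ranked 21654, 29469 and 24782 in wildtype, against 972 and 3426 in knockout. Its shift was −3.72 (SE 0.49, limma adjusted p = 0.00209) by rank and 0.022 by fold enrichment brought to one distribution. Before that step, fold enrichment there was 9.86, 6.60 and 7.28 in wildtype, against 11.5 and 10.9 in knockout. It was higher in both knockout libraries, as at 42.8% of distal regions. The other 5 lay inside Trpm3, a cation channel gene, Anapc15, of the anaphase-promoting complex, Mecr, of mitochondrial fatty acid synthesis, Rfx1, an RFX transcription factor gene, and Snx29, a sorting nexin gene. Their shifts by rank were −2.34, −2.34, −2.25, −2.25 and −2.22. Without knockout replicate 1 none of these 5 was called (limma adjusted p = 0.228, 0.0856, 0.0792, 0.166 and 0.393), and all but Mecr were also lost without wildtype replicate 2. The Anapc15 site, in 3 Sox4 libraries, ranked 4592, 5027 and 3914 against 640 and 1244, with fold enrichment of 16.7, 14.8 and 13.7 against 17.0 and 17.2. Anapc15 and Rfx1 had a transcript start inside the site.

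Of the 5 sites shown with a Sox sequence, 3 were called stronger by rank and 0 weaker, beside 18.4% and 10.2% of all sites with a start, and 5 sites are too few to set them apart from these. The Fuz site ranked 17745, 23975 and 31299 in wildtype, against 8767 and 7473 in knockout, and its shift was −1.45 (limma adjusted p = 0.0168). The Smg9 site (shift −1.20, adjusted p = 0.0477) and the site of 1700113A16Rik (−1.48, adjusted p = 0.0454) were the other 2 that limma called stronger. Fold enrichment overlapped between genotypes at Fuz, with 10.2, 7.17 and 5.37 against 8.77 and 10.4. The Sox9 site ranked 3407, 4168 and 4741 against 3250 and 2358 and was not called (shift −0.54, limma adjusted p = 0.378). The Epcam site ranked 5567, 7859 and 2631 against 13072 and 9106 (shift 1.19, limma adjusted p = 0.0972), and on fold enrichment it was called weaker (0.71, adjusted p = 0.0499).

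In all, 7 sites lacked a peak in one or both knockout lists. The strongest of them in wildtype lay inside Ank2, an ankyrin gene (chr3:127356392-127357266), at ranks 11039, 6154 and 10596. It had rank 122705 in knockout replicate 1 and no peak in knockout replicate 2. Its Sox4 rank was 164 in replicate 1 and 6318 in replicate 3. A site 129830 bp from Depdc1b ranked 47353, 48198 and 49631 in wildtype, against 147686 in knockout replicate 2, with no peak in knockout replicate 1. Sites near Cpxm2 (11803 bp) and Papss1 (3385 bp) and inside Ifi202b had no peak in either list and weak wildtype peaks, with best wildtype ranks of 39410, 26466 and 34552, and the fourth such site lay 12637 bp from Zfp970. A site 48487 bp from Rnf24 ranked 57306, 55196 and 79141 in wildtype, against 144061 in knockout replicate 1, with no peak in knockout replicate 2. The region overlapping the Rnf24 site had a peak in all lists, so the site was tested and not called (shift 0.33, limma adjusted p = 0.128).

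Of the 12 sites with the best Sox4 ranks in all 3 libraries, 1 was weaker by rank, 1 stronger and 10 not called. On fold enrichment all 11 of them compared here had a shift above 0, on the side of weaker in knockout. These shifts ran from 0.38 at Sash1 to 0.97 at Peg3, where the median of all sites was 0.41. Limma called 3 of the 11 weaker on that measure, at Peg3 (adjusted p = 0.0286), Kat6b (0.0251) and Tef (0.0365). At Pls1, which encodes an actin-bundling plastin of stereocilia, a site inside the gene (chr9:95813947-95814493) had Sox4 ranks of 101, 65 and 98. Its ATAC ranks were 1088, 1531 and 713 in wildtype, against 1599 and 2015 in knockout (shift 0.74, limma adjusted p = 0.356). Sites inside Mical3, Tef, Sash1, Mast3 and Ing1 held a transcript start, which makes 5 of the 12. The one weaker by rank lay inside Peg3, a paternally expressed imprinted gene, 1551 bp from its end. Its Sox4 ranks were 59, 138 and 106, and its ATAC ranks 4317, 4569 and 3431 in wildtype, against 27295 and 9985 in knockout (shift 2.00, SE 0.44, limma adjusted p = 0.0132). Fold enrichment at Peg3 was 8.75, 7.45 and 7.88 against 4.87 and 6.14, lower in both knockout libraries. Without knockout replicate 1 the Peg3 call was lost (shift 1.32, limma adjusted p = 0.197). The one stronger by rank lay inside Fbxl19, at ranks 12577, 8716 and 10474 against 3121 and 4385 (shift −1.46, limma adjusted p = 0.0226), and its shift was 0.47 by fold enrichment. The Fbxl19 call was also lost without wildtype replicate 2 (limma adjusted p = 0.054) and without knockout replicate 1 (0.223) or 2 (0.0532). Further sites of the 12 lay inside Slc27a1, Clec11a and Kat6b.

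A coding gene lay within 100 kb of 388 sites, and 368 genes were nearest to at least 1. Of 18 lists of genes of the cochlea and of signalling pathways, 10 had a site near a member and 8 had none. The lists without a site were those of hair cells, non-sensory epithelium, spiral ganglion, mesenchyme, glia, the Fgf and Hippo pathways and chromatin regulators. Such lists were also nearest to few distal regions, from 0.0795% (glia) to 0.323% (non-sensory epithelium) of 55339 with a gene within 100 kb, so that 0 of 388 sites is near what they give. In all, 25 sites lay near a listed gene, and of the 24 tested 4 were weaker in knockout and 0 stronger, where 27.4% and 6.64% of all sites and 8.69% and 9.58% of all regions were. These 4 lay inside Lgr5, Ctnna2, Nectin3 and Jag1. These counts, and those per list, are too small to be read as rates.

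Supporting cell genes had 5 sites, near Lgr5, Prox1, Cdkn1b and Id4, 1 of them weaker in knockout (median shift −0.15). Inside Lgr5, the gene of an R-spondin receptor that marks supporting cell progenitors, a site (chr10:115493185-115493784) ranked 1731, 1279 and 1013 in wildtype, against 16924 and 16567 in knockout. The groups did not overlap, and the shift was 3.67 (SE 0.42, limma adjusted p = 0.00115). Fold enrichment was 12.9, 12.7 and 13.7 in wildtype, against 7.57 and 8.88 in knockout, so the fall held on that scale too. The site had Sox4 ranks of 15 in replicate 2 and 368 in replicate 3 and was not in the strongest peaks of replicate 1. Its adjusted p stayed under 0.05 in all 9 alternatives tried.

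Prosensory genes had 6 sites, among them sites near Jag1, Prox1, Sox9 and Cdkn1b, and 1 of the 6 was weaker (median shift 0.09). They were 1.55% of the sites with a gene within 100 kb, against 0.412% of such distal regions. The Jag1 site (chr2:137107251-137107995), inside the gene of the Notch ligand of the prosensory domain, ranked 7521, 6122 and 6914 in wildtype, against 17484 and 12655 in knockout. Its shift was 1.14 (SE 0.35, limma adjusted p = 0.0418), and the call held in 4 of 9 alternatives. It was lost with fold enrichment (limma adjusted p = 0.0911), without wildtype replicate 2 (0.104) or 3 (0.061), and without knockout replicate 1 (0.359) or 2 (0.113). Fold enrichment was 10.4, 9.25 and 8.56 against 8.66 and 9.40, which overlap. Inside Prox1, the gene of a homeodomain factor of the prosensory domain, a weaker peak ranked 43336, 43853 and 51752 against 41977 and 42616 and was not called (limma adjusted p = 0.702). At Cdkn1b, the p27Kip1 gene itself, sites 2695 and 25742 bp away had shifts of −1.45 (limma adjusted p = 0.0524) and 0.43 (0.356). The nearer one depended on the setting and was called stronger in 4 of 9 alternatives. Among these were ranks in the full lists (limma adjusted p = 0.0416) and a replicate block (0.0283). Its shift was −2.18 without knockout replicate 1 and −0.72 without knockout replicate 2. On fold enrichment it was 0.26 and not called (limma adjusted p = 0.394). With a site at the start of Gpr19, at ranks 33387, 21684 and 24464 against 20022 and 21215, the Cdkn1b sites formed a run of 3 sites within 64158 bp.

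Adhesion and cytoskeleton genes had 4 sites, 2 of them weaker (median shift 1.11). The site inside Ctnna2, which encodes a neural alpha-catenin, ranked 7342, 4766 and 5390 in wildtype, against 68140 and 50768 in knockout (chr6:77742725-77743555, shift 3.01, limma adjusted p = 0.00112). Fold enrichment there was 14.7, 12.6 and 11.1 against 7.79 and 8.34. The site inside Nectin3, the gene of a nectin that joins neighbouring epithelial cells, ranked 18433, 17521 and 14817 against 34967 and 32985 (shift 2.00, limma adjusted p = 0.00456). At both sites every wildtype rank was ahead of every knockout rank. Fold enrichment at Nectin3 was 7.22, 6.57 and 6.49 against 7.95 and 7.28, higher in both knockout libraries. After fold enrichment was brought to one distribution the Nectin3 site was still called weaker (shift 0.84, limma adjusted p = 0.0279). Sites at Ctnnd1 (shift 0.22) and Myh9 (−0.64) were not called by rank, and on fold enrichment Ctnnd1 was called weaker (shift 0.66, limma adjusted p = 0.0324).

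Among pathways, Wnt genes had 4 sites (Lgr5, Tcf7l1, Rspo2 and Fzd7), of which 1 of 3 tested was weaker. The Fzd7 site, 33062 bp from the gene of a Frizzled receptor, could not be tested because no region of the fit covered it. Its ranks were 12573, 47054 and 13229 in wildtype, against 5844 and 5752 in knockout. Notch genes had 3 sites (Jag1, Maml3 and Notch3) with 1 weaker, and BMP and TGF-beta genes had 3 (Tgfb2, Id4 and Smad6) with 0 called (median shift −0.85). The Sox list had 5 sites with 0 called, 3 of them inside Sox5 and the others inside Sox6 and near Sox9 (median shift −0.30). For none of the sites was Sox4, Sox11 or Sox12 the nearest coding gene. The epithelium list had the Epcam site and the blood list a site inside Klf1, neither called.

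Sox5, a SoxD factor gene, and Zfp608 were the only genes nearest to 3 or more sites within 100 kb. The 3 Sox5 sites lay inside the gene, and the strongest ranked 2180, 6081 and 2200 in wildtype, against 3226 and 1906 in knockout. The 3 Zfp608 sites had shifts of −0.47, 0.33 and −0.36, and none of the 6 was called. Over the genome, 22 runs of sites within 100 kb of each other held 46 sites. A pair inside Rabgap1l was called weaker at both sites, at ranks 8259, 7839 and 8502 against 18442 and 22678 and 23971, 14658 and 13434 against 74205 and 106816. A pair 1580 bp in extent inside Rnf44 shared the same knockout peak, so its values are not independent.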

How the data were processed

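The authors deposited a MACS2 peak list per library, with fold enrichment as a ratio and significance as −log10 p and −log10 q, per the file headers and the submitters' processing notes (which also name STAR, UMI-tools and deepTools; builds mm10 and GRCm38; no versions). Read totals are unknown. Autosomal peaks that overlapped became 1 peak with the summit of the strongest, and −log10 p set their ranks. Wildtype open regions were merged summit windows of 501 bp overlapping a peak in all 3 wildtype lists (82686, of which 66645 were distal). Log2 ranks were fitted with limma 3.58.1 (trend, no replicate block) under R 4.3.3, and tested on simulated data. Coding genes (20665) came from a RefSeq table of mm10 without strand. Starts and sequences came from RefSeq promoter windows, which lacked chromosome 18 (13 sites). Named sites were the 12 strongest by worst Sox4 rank, the 6 largest shifts each way, up to 6 sites lacking a knockout peak, genes with 3 or more sites, and up to 4 sites per list; Smg9, Fuz, 1700113A16Rik, Rabgap1l, Rnf44 and Gpr19 were named after their values were seen. The sites, lists and rules were chosen with earlier results of these data known. Single-cell tables were not used, and some items the naming rule picks are not reported here. Motifs over whole sites were not searched.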

Additional observations from a re-analysis of the deposited data

How the results depend on the processing

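The number of sites was 304 with 10000 and 803 with 40000 Sox4 peaks per library, and 200 to 273 when a Sox4 library was left out, which then requires both remaining libraries. Without a wildtype ATAC library it was 477 to 482. The share with a peak in both knockout lists was 96.6% with the 100000 and 85.0% with the 50000 strongest knockout peaks, 85.2% where the knockout summit had to lie inside the site and 100% for sites in 3 Sox4 libraries. Leaving out an ATAC library gave 43 to 133 weaker sites, 4 to 31 stronger sites and a median shift of 0.33 to 0.63. With fold enrichment 4 sites were stronger. On both measures a shift above 0 means weaker in knockout. The shift by rank was below 0 and that by fold enrichment above 0 at Mecr (0.37), Anapc15 (0.20), Fbxl19 (0.47), Rfx1 (0.48), Tef (0.63), Snx29 (0.055), Btbd9 (0.022) and Trpm3 (0.11), each called on 1 of the measures. The same change of sign was found at 12 named sites called on neither, among them Sox9 (0.58), Clec11a (0.52), Id4 (0.29), Cdkn1b (0.26), Notch3 (0.17), Klf1 (0.099) and Smad6 (0.078), and the opposite change at 0. The cause was not tested. Ranks in the full lists (137 weaker and 33 stronger, with 12.6% and 9.49% of all regions), regions above the median strength (137 and 31, with 14.0% and 15.8%) and sites without a transcript start (120 and 22) stayed within 1.5 times the reported counts. The labels do not say whether replicate numbers pair the samples, and the deviations of samples with the same number were weakly correlated (0.088 and 0.059 over 2 pairs). These values cannot settle the pairing. A replicate block gave 150 weaker and 39 stronger sites with a median shift of 0.56, while calls over all regions rose to 12.1% and 12.8%. The motif search over whole sites and its alternative were not run.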

Other observations

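Some further distal sites lay near genes of the inner ear outside the rule for naming and were picked after their values were seen. All of those given here are falls by rank, so they do not show how sites near such genes behave in general. Of all sites tested, 27.4% were weaker and 6.64% stronger by rank. The sites nearest to Otol1, Ush1c and Sall1, for example, had no call in either direction. A site inside Eya4, a transcriptional coactivator gene of the otic lineage, was in all 3 Sox4 libraries at ranks 564, 53 and 154 (chr10:23261923-23262563). Its ATAC rank was 4357, 4664 and 6865 in wildtype, against 62397 and 41451 in knockout, and its fold enrichment 15.2, 13.1 and 11.9 against 7.22 and 8.19. The shift was 3.02 (limma adjusted p = 0.0013). A site 285935 bp from Isl1, the gene of a LIM-homeodomain factor, ranked 4242, 3240 and 1887 in wildtype, against 23554 and 29256 in knockout. That distance is beyond the limit of 100 kb used above for a nearby gene. A site 74419 bp from Mef2c ranked 768, 420 and 819 against 5823 and 5082, with fold enrichment of 13.3, 13.1 and 10.4 against 11.6 and 11.8, which overlap.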
